A study of Mus musculus with 8 samples.

Results

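The genes examined were 5 that stand beside paternally methylated control regions in the mouse genome, namely H19, Igf2, Meg3, Dlk1 and Rasgrf1. The domain of each gene was its body with 30 kb on either side, as annotated in GENCODE mouse release 21 on GRCm38 (mm10). The 5 domains held 5406 CpGs listed in all 4 libraries, out of 19788257 autosomal CpG positions listed in any library, and 689 of the 2586849 autosomal windows of 500 bp that could be scored. A window was scored when it held at least 3 CpGs listed in every library and at least 20 reads in each of them.

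The methylation levels came from whole-genome oxidative bisulfite sequencing (WGoxBS), in which an oxidation step ahead of bisulfite is meant to leave 5-methylcytosine as the only form of cytosine still read as C. The cells were naive CD4+ T cells (CD62L hi, CD44 lo, CD25-) and resting CD43- B cells from spleens of C57BL/6J mice of 6 to 8 weeks, and the labels name no treatment and no altered allele in any group. Each cell type came from females and from males, which makes 4 groups. The labels list 8 samples, 2 per group, but the paired samples point to a single file, so each group is 1 library here and has no replicate error of its own; the study pooled cells of several mice for each sample. B and T cells were compared with 2 libraries on each side, 1 from each sex, and wherever 2 values are given for a cell type the female library comes first and the male library second. The libraries held 280919817 to 354634149 reads at CpGs, with a median of 14 to 17 reads per listed autosomal CpG, the lowest being male B cells. All 6 T cell marker promoters were less methylated in both T cell libraries and all 6 B cell marker promoters in both B cell libraries. The share of reads called methylated on mitochondrial DNA was 0.271% and 0.727% in the female and male B cell libraries and 0.0733% and 0.0709% in the female and male T cell libraries, and the part of this difference in the results was not tested.

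Imprinted genes are expressed from 1 parental copy only. In most imprinted clusters the methylated copy of the control region is the maternal one, and the Igf2-H19, Dlk1-Meg3 and Rasgrf1 loci are among the few where it is the paternal one. Igf2 encodes a fetal growth factor and Dlk1 a transmembrane protein related to Notch ligands, both expressed from the paternal copy, whereas H19 and Meg3 produce noncoding RNAs from the maternal copy. Rasgrf1 encodes a guanine nucleotide exchange factor for Ras that is imprinted in brain. At Igf2-H19 the insulator protein CTCF binds the unmethylated maternal control region, and the zinc finger protein ZFP57 binds a methylated hexamer and helps to maintain imprints after fertilization. A control region methylated on 1 of the parental copies reads at an intermediate level when reads of both copies are counted together. The deposited values hold neither the allele nor the pattern of single reads, so a region methylated on 1 allele and a region methylated in a share of the cells cannot be told apart.

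The sequences that carry the results are given first, 5′ to 3′ on the forward strand of GRCm38. The next 3 lines show the CpG-densest 150 bases of a stretch at intermediate level in the H19, Meg3 and Rasgrf1 domains, with each CpG in capitals. They are H19 stretch 1 at chr7:142580244-142580393, upstream of the gene, Meg3 stretch 2 at chr12:109540884-109541033, across the gene start, and Rasgrf1 stretch 3 at chr9:89883291-89883440, upstream.
H19 stretch 1: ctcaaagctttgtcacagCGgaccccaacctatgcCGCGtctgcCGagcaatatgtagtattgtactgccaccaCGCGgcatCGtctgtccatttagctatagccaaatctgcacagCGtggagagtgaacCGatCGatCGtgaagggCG
Meg3 stretch 2: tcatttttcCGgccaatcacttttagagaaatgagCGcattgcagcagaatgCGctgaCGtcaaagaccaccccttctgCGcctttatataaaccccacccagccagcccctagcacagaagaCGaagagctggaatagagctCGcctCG
Rasgrf1 stretch 3: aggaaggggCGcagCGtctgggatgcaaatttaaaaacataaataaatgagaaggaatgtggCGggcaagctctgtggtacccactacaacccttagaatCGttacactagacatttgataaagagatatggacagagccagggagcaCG

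The following 3 lines show the 60 bases around each match to the CTCF core in the stretches upstream of H19, with the match in capitals, at chr7:142580286-142580345, chr7:142580741-142580800 and chr7:142582011-142582070.
H19 CTCF match 1: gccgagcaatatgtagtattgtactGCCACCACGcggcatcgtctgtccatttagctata
H19 CTCF match 2: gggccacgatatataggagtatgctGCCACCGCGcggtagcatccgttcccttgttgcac
H19 CTCF match 3: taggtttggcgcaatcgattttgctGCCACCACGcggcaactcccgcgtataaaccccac

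The last line shows the CpG-densest 150 bases of the window with the widest gap between B and T cells, again with CpGs in capitals. They lie in an intron of Rasgrf1 (chr9:89989001-89989150).
Rasgrf1 intron: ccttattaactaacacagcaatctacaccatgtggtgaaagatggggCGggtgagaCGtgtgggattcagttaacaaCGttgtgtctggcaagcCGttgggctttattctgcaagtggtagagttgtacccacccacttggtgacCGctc

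Most of the 5 domains was highly methylated, with a small number of short intervals at intermediate levels. Of the 689 scored windows, which held a median of 6 CpGs and 100 reads per library, 52 (7.55%) lay between 30% and 70% methylated reads in every library. Over all scored autosomal windows the same share was 2.98%. The 52 windows comprised 6 in the H19 domain, 8 at Igf2, 12 at Meg3, 7 at Dlk1 and 19 at Rasgrf1. A stretch was defined as at least 2 consecutive scored windows in this range, with at most 1 unscored window between them. In all, 12 stretches held 29 of the 52 windows and the other 23 windows stood alone. With bounds of 25 to 75% the windows numbered 83, beside 4.93% of all autosomal windows. With CpGs of at least 10 reads they numbered 34, beside 3.26%. The stretches numbered 7 with CpGs of at least 10 reads and 4 with 1-kb windows. Since the levels in all 4 libraries chose these windows, their levels are a description, and inside these bounds B and T cells could differ by at most 40 percentage points. Close to the bounds the choice was narrow. The Rasgrf1 window at 89973501 was inside with 30.2% in female T cells, and the Rasgrf1 window at 89948501 was outside with 29.6% in male T cells.

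**Figure D1:**
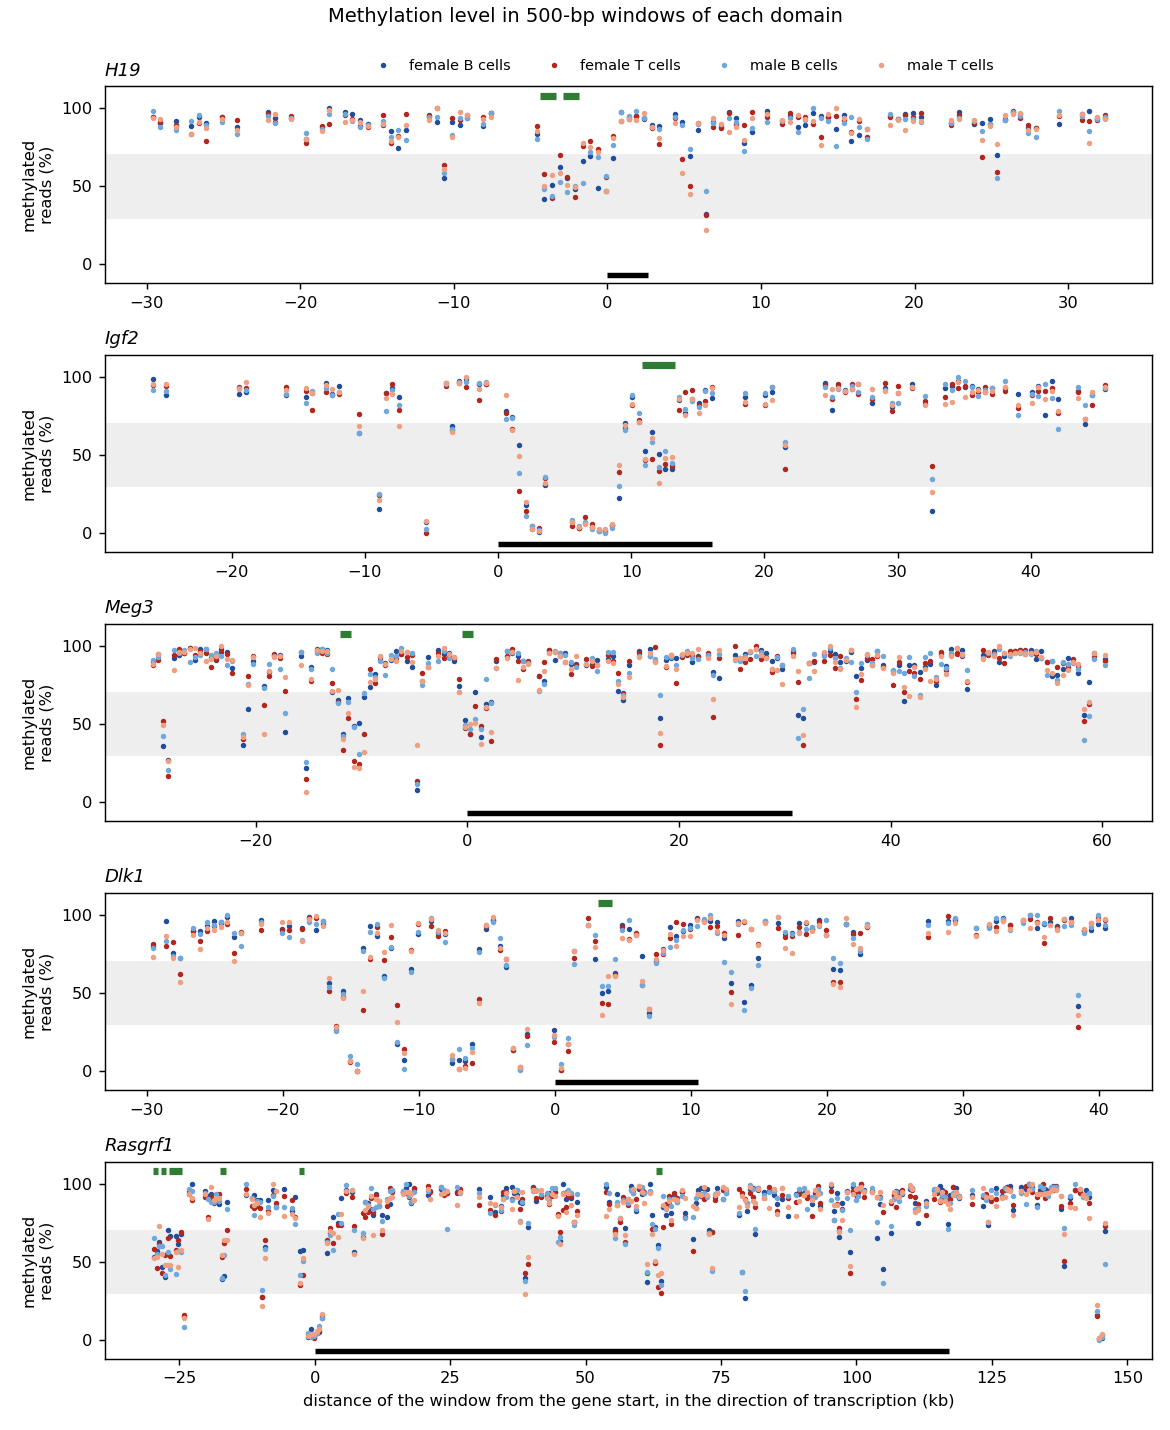
Methylation level (percent methylated reads, vertical axis) of every scored 500-bp window against its distance from the gene start in kb (horizontal axis), 1 panel per gene and 1 color per library; the black bar is the gene, the grey band marks 30 to 70% and the green bars are the 12 stretches. The 4 libraries overlapped over most of each domain and parted in the windows that were called between B and T cells, with Igf2, Dlk1 and Rasgrf1 dropping below 10% over CpG-rich parts and H19 and Meg3 holding no window with a mean under 10%.

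H19 and Igf2 lie in the same cluster on chromosome 7 and are both transcribed from the reverse strand. Upstream of H19 (ENSMUSG00000000031.16, chr7:142575529-142578143) there were 2 stretches of 1000 bp each. H19 stretch 1 (chr7:142580001-142581000, 1858 bp before the gene start at its near end, 37 CpGs) had a methylation level of 50.6% (95% Wilson interval 47.5 to 53.7) and 48.6% (44.6 to 52.7) in B cells and 47.7% (44.5 to 50.9) and 49.9% (46.7 to 53.2) in T cells. These intervals treat each read at each CpG as independent. They are likely too narrow even for counting error, because reads carried no molecular identifiers and CpGs on the same read are not independent. The 4 libraries overlapped and every interval held 50%. H19 stretch 2 (chr7:142581501-142582500, 23 CpGs) stood at 45.6% and 45.7% in B cells and at 49.4% and 53.4% in T cells. Here too every interval held 50%, and both T cell libraries lay above both B cell libraries, by a mean of 5.75 points.

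The stretches at H19 were separated by a single window that passed 70% in 1 library. In that window (start 142581001, 11 CpGs) the level was 62.2% and 52.8% in B cells and 70.3% and 58.2% in T cells. The window beyond stretch 2 (start 142582501) was at 80.4% to 88.5%, which marked a sharp upstream edge. Toward the gene the level rose less steeply, to 52.3% to 77.8% over the window at 142579501, and a lone window at the gene start (142578001, 9 CpGs) was again intermediate at 46.7% to 56.9%. Within the body, the windows at 142576501 and 142577001 were at 91.5% to 97.8%. The windows beside the stretches were picked out after their values had been seen.

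All 37 CpGs of H19 stretch 1 had a mean over the libraries between 30% and 70%, with means from 37.2% to 62.3%. Over the 12 CpGs of the H19 stretch 1 sequence printed above (17 to 44 reads each) the medians were 47.3% and 61.9% in B cells. They were 46.3% and 50.7% in T cells. Of the 3 matches to the CTCF core, matches 1 and 2 lay in stretch 1 and match 3 in stretch 2. CpGs in the 60 bases around match 1 (4 CpGs, 17 to 44 reads each) had a median of 47.7% and 66.7% in B cells and 45.5% and 52.0% in T cells. Around match 2 (5 CpGs, 8 to 31 reads) the medians were 53.8% and 75% in B cells and 59.1% and 61.1% in T cells. Around match 3 (6 CpGs, 16 to 28 reads) they were 35.4% and 41.7% in B cells and 51.3% and 42.6% in T cells. The male B cell library, the shallowest, was the highest at matches 1 and 2 and the second lowest at match 3.

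At Igf2 (ENSMUSG00000048583.16, chr7:142650766-142666816) the longest stretch of the 5 domains ran over 5 windows toward the 3′ end of the gene. Igf2 stretch 1 (chr7:142653501-142656000, 59 CpGs, 10816 to 13315 bp from the gene start) covered exons of Igf2 and the microRNA gene Mir483. Its level was 46.8% (43.8 to 49.8) and 48.5% (44.96 to 52.1) in B cells and 44.8% (41.8 to 47.8) and 48.6% (45.6 to 51.6) in T cells. B and T cells overlapped, and the mean difference was 0.967 points. Further toward the gene start, 7 CpG-rich windows from 142658001 to 142661500, over exons of Igf2 and its antisense gene Igf2os, were at 0.469% to 10.3% in every library. Between these and the stretch the level rose, and the window at 142656501 was at 82.3% to 88.4%. Over the whole Igf2 domain the level was 54.0% to 56.9%, the lowest of the 5 domains, and at H19 it was 82.1% to 83.0%.

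**Figure D2:**
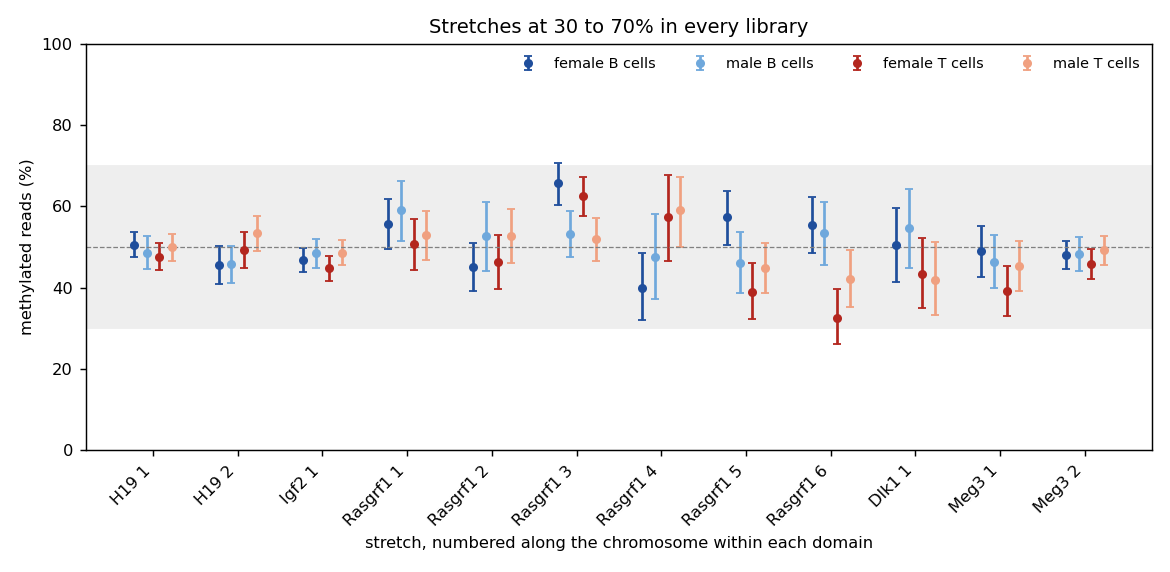
Methylation level of each of the 12 stretches (vertical axis, percent methylated reads, with 95% Wilson intervals) in the 4 libraries; stretches are numbered along the chromosome within each domain, the grey band marks 30 to 70% and the dashed line 50%. H19 stretches 1 and 2, Rasgrf1 stretch 2 and Meg3 stretch 2 held all 4 libraries within 5 points of 50%. Rasgrf1 stretch 6 spread from 32.6% in female T cells to 55.5% in female B cells.

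Meg3 and Dlk1 lie on chromosome 12 and are transcribed in the same direction, with Dlk1 upstream. Meg3 stretch 2 (chr12:109540501-109541500, 34 CpGs) spanned the start of Meg3 (ENSMUSG00000021268.17, chr12:109541001-109571726). Its level was 48.2% (44.7 to 51.6) and 48.3% (44.1 to 52.6) in B cells and 45.7% (42.1 to 49.5) and 49.3% (45.7 to 52.8) in T cells. The 4 libraries overlapped, and 33 of its 34 CpGs had a mean between 30% and 70%. Over the 8 CpGs of the Meg3 sequence printed above (12 to 27 reads each) the libraries lay further apart, with medians of 27.9% and 46.9% in B cells and 55.1% and 59.6% in T cells. Going upstream the level rose to 70.9% to 79.2% in the window at 109540001 and to 90.4% to 93.3% in the next.

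The interval between Dlk1 and Meg3 is known to hold the germline control region of the cluster, but no window was matched to that region by position. The part of the interval from 109493336 to 109511001 lay outside both domains and was not examined. The scored part near Meg3 was not uniformly intermediate in these cells. Going toward Meg3, the window at 109525501 (10 CpGs) was at 21.8% and 25.8% in B cells and 15.1% and 6.79% in T cells. The 3 windows from 109526501 to 109528000 (19, 14 and 18 CpGs) were at 95.03% to 98.2% in every library. The level then fell over 109528001 (70.3% to 85.3%) and 109528501 (63.6% to 71.6%) to Meg3 stretch 1. This run of windows was chosen after its values had been seen. Meg3 stretch 1 (chr12:109529001-109530000, 12 CpGs) had 48.95% and 46.4% in B cells and 39.1% and 45.3% in T cells. This level was an average of extremes, as 5 of its 12 CpGs had a mean under 30%, 6 had a mean over 70% and 1 lay between. With only CpGs of at least 10 reads female T cells were at 29.4%, outside the range that defined the stretch.

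In the 3 windows that follow, up to 109531500, both B cell libraries were above both T cell libraries. At 109530001 (11 CpGs) the level was 49.1% and 48.2% in B cells and 26.6% and 22.6% in T cells, a difference of 24.0 points (edgeR quasi-likelihood test, Benjamini-Hochberg adjusted p = 5.2e-05, limma adjusted p = 0.30). At 109531001 (5 CpGs, over an exon of the annotated gene Gm27528) the values were 67.7% and 70.2% in B cells and 43.5% and 32.4% in T cells, a difference of 31.0 points (edgeR adjusted p = 0.00055, limma adjusted p = 0.24). In the window at 109530001, 9 of 11 CpGs had both B cell levels above both T cell levels. This count describes a window chosen by its gap in the same libraries, and CpGs on the same read are not independent. The window at 109531001 was not called without the male T cell library (25.4 points, edgeR adjusted p = 0.13).

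Dlk1 (ENSMUSG00000040856.17, chr12:109452823-109463336) had an unmethylated start, with 0.642% and 4.52% in B cells and 1.00% and 2.18% in T cells over the 43 CpGs of the window at 109453001. The CpG-richest intermediate window of the 5 domains was in an exon of Dlk1. This window (start 109459501, 33 CpGs), which stood alone, was at 37.3% and 35.1% in B cells and 39.6% and 39.5% in T cells, so that its libraries lay within 5 points. Upstream of Dlk1 the window at 109437001 (13 CpGs) was at 47.1% to 51.4%. These lone windows were picked out after their values had been seen. The only stretch, Dlk1 stretch 1 (chr12:109456001-109457000, in an intron), rested on 8 CpGs, whose means ranged from 0% to 98.3%. Its level was 50.5% and 54.7% in B cells and 43.4% and 42.0% in T cells.

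Rasgrf1 (ENSMUSG00000032356.12, chr9:89909908-90026977) had 6 of the 12 stretches. The first 3 of them sat in a row at the outer upstream edge of the domain. Rasgrf1 stretch 1 (chr9:89880001-89881000, 18 CpGs) was at 55.8% and 59.1% in B cells and at 50.6% and 52.9% in T cells. Rasgrf1 stretch 2 (chr9:89881501-89882500, 13 CpGs) was at 45.04% and 52.7% in B cells and at 46.2% and 52.8% in T cells. Rasgrf1 stretch 3 (chr9:89883001-89885500, 24 CpGs) was at 65.7% and 53.2% in B cells and at 62.6% and 51.9% in T cells, again female before male. In stretch 3 the female libraries were above the male libraries by 11.6 points, while B and T cells differed by 2.24 points. No window of it was called between the sexes. In the Rasgrf1 stretch 3 sequence printed above, the 5 CpGs (6 to 19 reads each) ranged from 12.5% to 92.3% over the libraries. The intermediate zone did not stop at the domain edge. Outside it, 5 windows from 89877001 to 89879500 were at 41.0% to 64.5% in every library, and the window at 89879501, with 31 CpGs, was at 43.9% and 48.2% in B cells and 40.5% and 27.9% in T cells. These outside windows were examined after the stretches had been seen. On the side of the gene the zone ended at the window at 89885501, with 8.18% to 15.8%.

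The other 3 stretches of Rasgrf1 were sparse in CpGs. Rasgrf1 stretch 4 (chr9:89892501-89893500) held 7 CpGs and was at 40.0% and 47.6% in B cells and at 57.5% and 59.0% in T cells. With only CpGs of at least 10 reads its level was 17.2% in female B cells and 28.1% in male B cells, outside the range that defined it. Rasgrf1 stretch 5 (chr9:89907001-89908000) held 9 CpGs and was at 57.4% and 46.1% in B cells and at 39.0% and 44.8% in T cells. Rasgrf1 stretch 6 (chr9:89973001-89974000), in an intron, held 11 CpGs and was at 55.5% and 53.5% in B cells and at 32.6% and 42.1% in T cells, and female T cells fell outside the range, at 28.99%, when each library used every CpG it listed. The start of Rasgrf1 was unmethylated, with 1.05% to 3.73% over the 42 CpGs of the window at 89909501.

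The 12 stretches differed in the levels of their single CpGs, and by the mean over the libraries most CpGs were intermediate in 9 of them. Within single libraries the number of intermediate CpGs varied, and in some it was as high as by the mean or higher. Intermediate CpGs in a library numbered 26 to 37 of 37 at H19 stretch 1, 26 to 30 of 34 at Meg3 stretch 2 and 2 to 7 of 11 at Rasgrf1 stretch 6. In the 7 stretches with 13 to 59 CpGs, a mean between 30% and 70% was found at 37 of 37 CpGs (H19 stretch 1), 22 of 23 (H19 stretch 2), 52 of 59 (Igf2 stretch 1), 17 of 18 (Rasgrf1 stretch 1), 13 of 13 (Rasgrf1 stretch 2), 18 of 24 (Rasgrf1 stretch 3) and 33 of 34 (Meg3 stretch 2). The SD of the CpG means in these was 6.15 to 15.1 points. In the other 5, with 7 to 12 CpGs, it was found at 2 of 7 (Rasgrf1 stretch 4), 6 of 9 (Rasgrf1 stretch 5), 6 of 11 (Rasgrf1 stretch 6), 3 of 8 (Dlk1 stretch 1) and 1 of 12 (Meg3 stretch 1), and the SD was 19.4 to 38.4 points. This division by the number of CpGs was made after the values had been seen.

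The letters of an imprinting factor were found in 5 of the 12 stretches, and those of both factors only in the H19 stretches. The CTCF core, searched as CGNGGNGGC on both strands, was present in 4 of the 29 stretch windows (13.8%), in 9.62% of the 52 intermediate windows, in 3.92% of the 689 windows of the domains and in 2.61% of all scored autosomal windows. The ZFP57 hexamer TGCCGC was present in 5 of the 29 (17.2%), and in 11.5%, 5.52% and 4.96% of the same sets in that order. Both motifs hold a CpG, and the sets were not matched for CpG content. The median was 7.5 CpGs in the 52 intermediate windows and 5 in all scored autosomal windows. The part of CpG content in these shares was not tested. H19 stretch 1 held 2 core matches and 3 hexamers, and H19 stretch 2 held 1 core match and 3 hexamers. At matches 1 and 3 the hexamer overlapped the core by 1 base, so these are not separate pieces of sequence. The remaining matches in stretches were 1 core in Igf2 stretch 1 and 1 hexamer each in Rasgrf1 stretch 2 and Meg3 stretch 2.

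**Figure D3:**
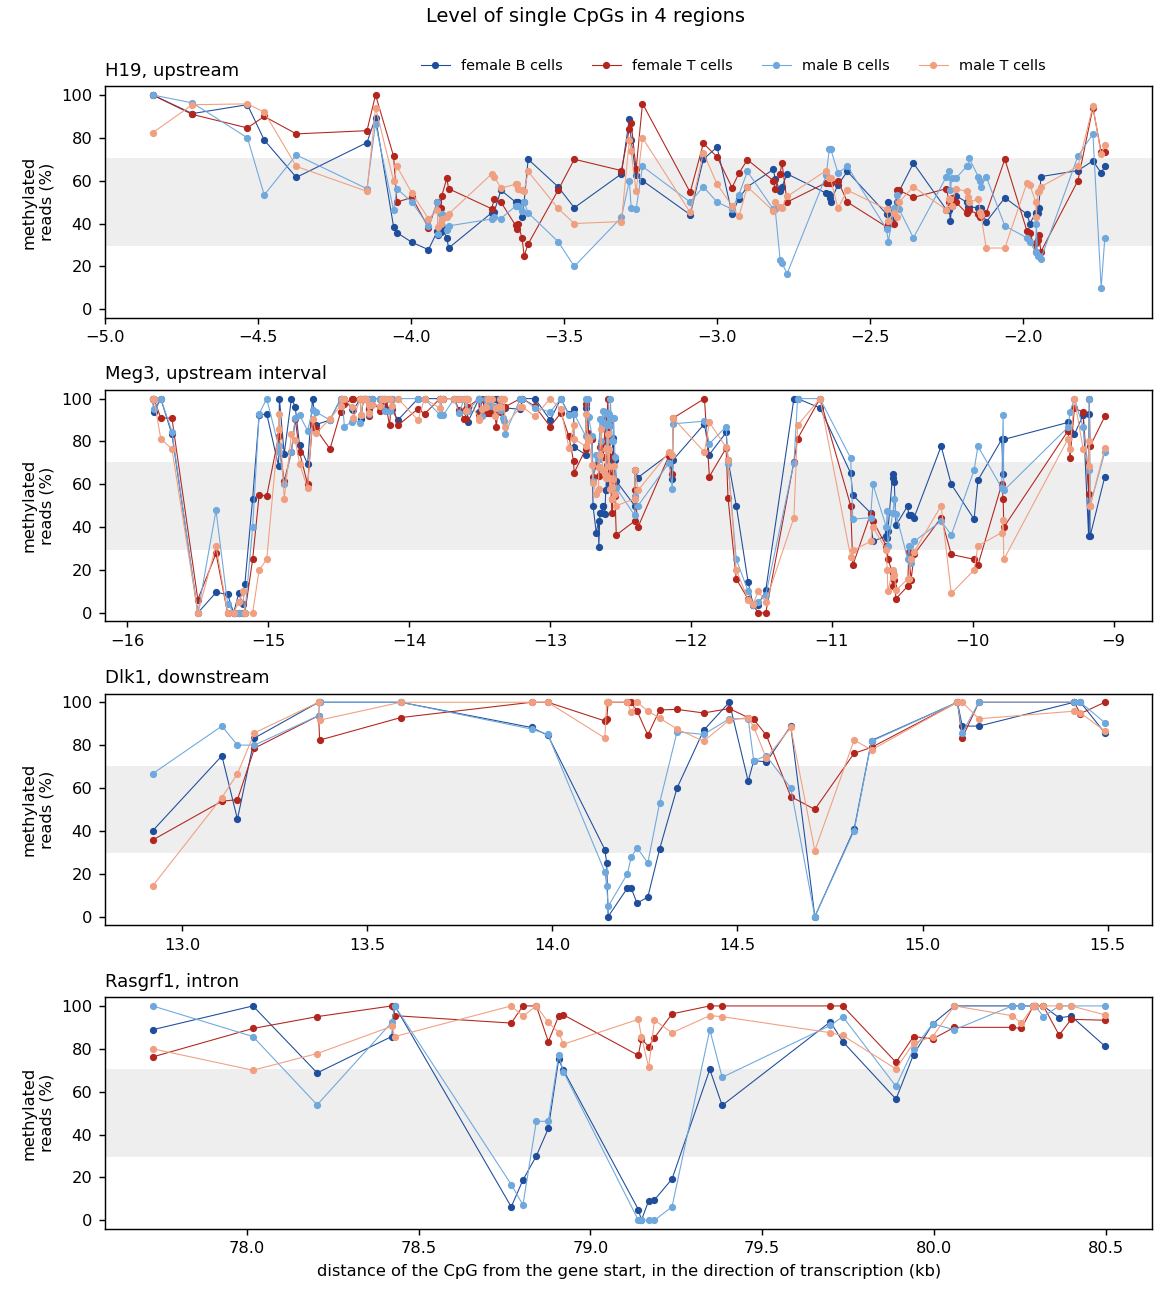
Methylation level of single CpGs (vertical axis, percent methylated reads) against distance from the gene start in kb, in the region upstream of H19, the interval upstream of Meg3, the region downstream of Dlk1 and an intron of Rasgrf1; points of 1 library are joined by a line and the grey band marks 30 to 70%. The libraries overlapped at intermediate levels upstream of H19, whereas downstream of Dlk1 and in the Rasgrf1 intron both B cell libraries dropped toward 0% where both T cell libraries stayed high.

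B and T cells had nearly the same level over each domain as a whole. The mean B minus T difference was 0.0821 points at H19, -0.537 at Igf2, 1.05 at Meg3, 2.09 at Dlk1 and -0.219 at Rasgrf1. The sign was the same in both sexes at Meg3 and Dlk1 and differed between the sexes at the other 3. At these 3 it also changed with the setting, at H19 to -0.371 points without male T cells and at Rasgrf1 to 0.134 as an unweighted mean of CpG levels. At Meg3 and Dlk1 it stayed positive, with lowest values of 0.365 and 0.826 points. Over all listed autosomal CpGs the level was 80.3% and 81.1% in B cells and 78.6% and 78.9% in T cells. A positive sign was therefore not particular to Meg3 and Dlk1. Among the 52 windows at intermediate level, the level was higher in B cells in both sexes in 18, higher in T cells in both sexes in 12, and the sign differed between the sexes in 22, with a median difference of 0.854 points. Over all autosomal windows at intermediate level the median difference was 0.462 points. Of these 52 windows 2 were called by the rule given next. The share over all autosomal windows was 3.52%, but these were not held to 30 to 70% in every library, so the 2 shares cannot be compared.

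A window was called when its edgeR quasi-likelihood test, adjusted over all autosomal windows, gave p under 0.05 and the difference between the mean of both B and the mean of both T libraries was at least 20 points. In the 5 domains 18 of 689 windows (2.61%) were called, against 3.52% of all autosomal windows, so that the share was near the background. A window that was not called is not shown to have the same level in both cell types. Of the 18, 10 were more methylated in B cells (2.55% of all windows were called in that direction) and 8 in T cells (0.968% of all windows). All 18 had the same sign in both sexes. The Meg3 and Rasgrf1 domains held 6 each, Dlk1 4, H19 2 and Igf2 0. The calls depended on the method. edgeR modelled counts and judged every window against a spread shared by all windows. limma, which used log ratios of the counts and weighs the spread of the window itself more, called 3 of the 18. Its share of all autosomal windows was 0.901%. All 3 were higher in T cells, so that 0 of the 10 calls higher in B cells were kept. Which of these differences between the methods moved the calls was not tested. An unadjusted limma p under 0.05 was reached in 57 of the 689 windows. The share of all autosomal windows that reached it was not counted, so the 57 carry no result about these domains. With 1-kb windows 2 of 7 calls were higher in B cells. Of the 18, 11 were called in each of the 4 fits that left out a library, and 12 and 15 were called without the female and the male B cell library, and 14 without either T cell library. In such a fit 1 cell type is left with a lone library, which is assumed to vary like the others, and the sex term was dropped.

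The largest differences were intervals that were methylated in T cells and depleted of methylation in B cells. In an intron of Rasgrf1, the window at 89989001 (7 CpGs) was at 27.0% and 31.3% in B cells and at 90.6% and 89.7% in T cells. B cells were lower by a mean of 61.0 points (B minus T -61.0, edgeR adjusted p = 5.1e-28, limma adjusted p = 0.033). The window next to it, at 89988501 (6 CpGs), was at 43.6% in both B cell libraries and at 94.5% and 92.1% in T cells (B minus T -49.7, edgeR adjusted p = 2.0e-20, limma adjusted p = 0.039). All 13 CpGs of both windows, 7 and 6, had both B cell levels below both T cell levels. This count is a description too, because the gap in the same libraries chose the windows. In the Rasgrf1 intron sequence printed above, the 5 CpGs ranged from 0% to 19.2% (females) and 0% to 6.25% (males) in B cells, and from 76.9% to 96.3% (females) and 71.4% to 93.8% (males) in T cells. A further window of Rasgrf1, at 90014501 (3 CpGs), was at 45.5% and 36.5% in B cells and 82.2% and 86.2% in T cells (B minus T -43.2, edgeR adjusted p = 4.7e-08, limma adjusted p = 0.095).

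Downstream of Dlk1 the pattern was the same in form. The window at 109466501 (5 CpGs) was at 44.3% and 39.2% in B cells and at 95.8% and 96.4% in T cells (B minus T -54.3, edgeR adjusted p = 1.7e-17, limma adjusted p = 0.028). The next window, at 109467001 (12 CpGs), was at 55.5% and 53.1% in B cells and at 91.2% and 90.7% in T cells (B minus T -36.7, edgeR adjusted p = 6.9e-19, limma adjusted p = 0.073). In the window at 109466501, itself chosen by its gap, all 5 CpGs had both B cell levels below both T cell levels. Single CpGs of this window ranged from 0% to 88.2% in B cells and from 83.3% to 100% in T cells. The intermediate level of this window in B cells was thus a mean over CpGs far apart in level.

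In the opposite direction, T cells were lower in 5 windows named by the size of the difference, of which the 2 in the Meg3 domain are given above. Upstream of Dlk1, the window at 109438501 (8 CpGs) was at 78.7% and 77.0% in B cells and at 39.2% and 51.1% in T cells, 32.7 points apart (edgeR adjusted p = 1.9e-07, limma adjusted p = 0.19). Also upstream of Dlk1, the window at 109447001 (7 CpGs) was at 78.4% and 76.0% in B cells and at 46.4% and 43.6% in T cells, 32.2 points apart (edgeR adjusted p = 4.1e-06, limma adjusted p = 0.18). The first bordered a window at 0% to 4.35% in all libraries and the second a window at 5.39% to 17.3%, so that both lay at the edge of a little methylated interval. Downstream of H19, the window at 142573001 (6 CpGs) was at 91.0% and 89.6% in B cells and at 67.6% and 58.8% in T cells, 27.1 points apart (edgeR adjusted p = 1.6e-05, limma adjusted p = 0.13). With only CpGs of at least 10 reads that difference was 16.8 points and below the minimum. Of the 8 other called windows, 5 had a B minus T difference of 20.8 to 23.9 points and 3 had one of -32.1 to -21.3 points.

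Among the windows at intermediate level, the 2 that were called lay in an intron of Rasgrf1, within Rasgrf1 stretch 6, and in an exon of Meg3 downstream of Meg3 stretch 2. The Rasgrf1 window at 89973001 was at 60.6% and 58.7% in B cells and at 33.9% and 41.7% in T cells (21.8 points, edgeR adjusted p = 0.0042, limma adjusted p = 0.40), and it was not called without either female library. The Meg3 window at 109543001 was at 64.4% and 63.7% in B cells and at 39.4% and 44.9% in T cells (21.9 points, edgeR adjusted p = 0.013, limma adjusted p = 0.39). It was not called with only CpGs of at least 10 reads, and of the fits that left out a library it was called only in the one without male T cells. The other 11 stretches held no called window. Both windows were named after their values had been seen.

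**Figure D4:**
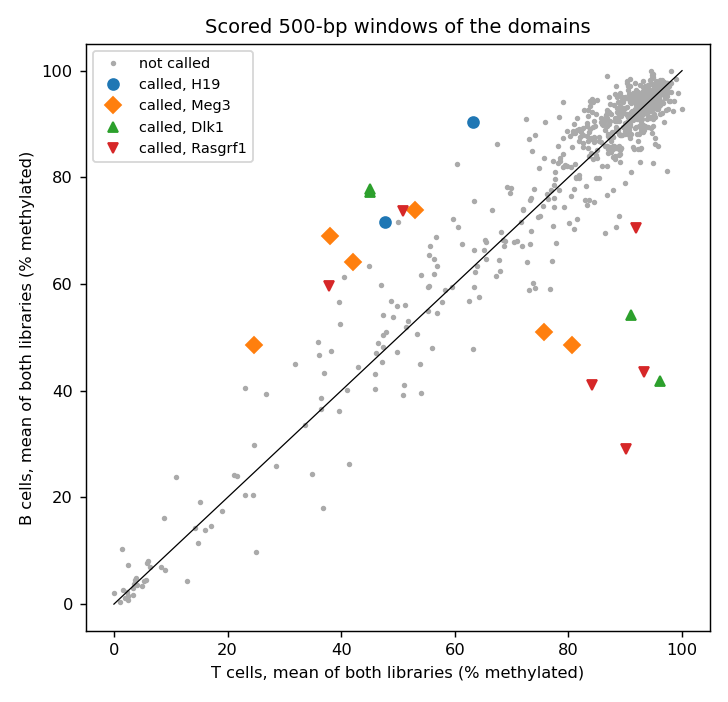
Mean methylation level of both B cell libraries (vertical axis, percent) against that of both T cell libraries (horizontal axis, percent) for the 689 scored windows; grey points were not called, colored symbols are the 18 called windows by gene, and the line marks equal levels. Most windows lie near the line at over 80%, and the widest departures, in the Rasgrf1 and Dlk1 domains, lie below it at over 80% in T cells.

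No window of the 5 domains was called between female and male cells with edgeR, against 0.000734% of all autosomal windows. An unadjusted p under 0.05 was reached in 34 of the 689 windows, and limma called 0. The contrast that asks if B minus T was unequal in females and males also called 0 windows with edgeR (0.000193% of all windows). Here 32 of the 689 were at an unadjusted p under 0.05 and 0 were called with limma. The shares of all autosomal windows at an unadjusted p under 0.05 were not counted, so the 34 and the 32 carry no result about these domains. The widest gap between the sexes among the windows at intermediate level was in the Rasgrf1 window at 89983001 (4 CpGs), named after its values had been seen, with 69.2% in both female libraries and 44.1% and 46.2% in male B and T cells (24.1 points, edgeR adjusted p = 1).

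A promoter was taken as the gene start with 1 kb to each side. That of Meg3 was intermediate, with 58.2% and 54.4% in B cells and 56.3% and 54.5% in T cells. H19 was at 61.4% in female B cells and at 72.8% to 77.4% in the other 3 libraries. Its B minus T difference of -9.02 points passed the adjusted p (edgeR adjusted p = 0.036) but not the minimum of 20 points, and the male libraries were close together. Igf2 was methylated at its annotated start (86.5% to 91.0%), whereas Dlk1 (5.41% to 10.5%) and Rasgrf1 (3.66% to 5.50%) were not. The little methylated CpG-rich windows over Igf2 exons, described above, lay outside the Igf2 promoter as taken here. None of the 5 promoters was called with edgeR, against 2.02% of all 28827 promoters, and their median difference of -0.669 points stood beside 0.942 points over all promoters.

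Among 16 neighbours of the 3 clusters, 1 promoter was called, against 2.02% of all promoters. Tnni2, which encodes a fast skeletal muscle troponin and lies near H19, was at 38.1% and 40.4% in B cells and at 72.8% and 73.3% in T cells (edgeR adjusted p = 4.4e-13). In the promoters of the other 15 the mean B minus T difference over both sexes was 4.59 points at most. They included Ascl2, which encodes a transcription factor of the trophoblast (7.05% to 8.35%), Rian and Mirg, noncoding RNA genes of the Dlk1-Meg3 cluster (86.5% to 96.4%), and Dio3, which encodes a deiodinase of thyroid hormone (9.14% to 10.1%). Ins2 and Th were also highly methylated (88.9% to 95.3%), Rtl1 was at 71.1% to 84.8%, Lsp1 at 33.4% to 38.9% and Mrpl23 at 14.5% to 19.9%, whereas Cd81, Begain, Wdr25, Ctsh, Morf4l1 and Tmed3 were at 0.287% to 11.6%. Of 11 genes with roles in setting or maintaining imprints, 0 were called with edgeR, beside the same 2.02% of all promoters, and 1 had an adjusted p under 0.05. This was Setdb1, which encodes a histone H3 lysine 9 methyltransferase, with 15.04% and 19.1% in B cells and 13.0% and 9.51% in T cells. Ctcf was at 0.0422% to 0.480% and Zfp57 at 86.6% to 91.7%.

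Beside 15 genes of maternally methylated clusters scanned in the same way, the share of intermediate windows was alike. The longest stretch was shorter, but it was the longest among 5 genes against the longest among 15. The share was 7.55% in the 5 paternally methylated domains and 7.60% (153 of 2013 windows) in the maternally methylated ones. The longest stretch had 5 windows (Igf2) in the former and 12 windows (Gnas) in the latter, with 10 at Peg3 and at Mest. It had 7 at Peg10, 6 at Zrsr1 and at Peg13, and 5 at Kcnq1ot1. The other maternally methylated genes had shorter stretches or none. Of the paternally methylated domains other than Igf2, Rasgrf1 reached 4 windows and H19, Meg3 and Dlk1 reached 2 each. Per scored Mb there were 34.8 stretches in the paternally methylated domains, 20.9 in the maternally methylated ones and 5.33 over all autosomes. The first of these rests on 12 stretches, which numbered 7 with CpGs of at least 10 reads, 7 when each library used every CpG it listed and 4 with 1-kb windows, and the maternally methylated domains were not scanned under these settings. Intermediate windows held a median of 7.5 CpGs in the former and 12 in the latter. These are counts over 5 and 15 genes, and no test of the difference was made.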

How the data were processed

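WGoxBS levels of 4 libraries, 1 per group of 2 samples, were analysed. The authors deposited, for each CpG with at least 5 reads, the level as a fraction rounded up to 3 decimals and the read count of both strands together. Per the labels, the processing notes name Trim Galore, FastQC, Bismark 0.13.1 and mm10; the role of each tool, duplicate removal and a possible joining of paired samples are not given in the sources used here. Methylated reads were recovered as level times reads, rounded down, which returned 100% of the deposited fractions. All 19788257 autosomal positions fell on a CG of GRCm38. No column of values per sample was left unused (0).

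For CpGs that every library listed, reads were added up within 500-bp windows (at least 3 CpGs and 20 reads in every library) and within 1 kb of gene starts (at least 5 CpGs). A window belonged to a domain by its midpoint. Methylated and unmethylated counts entered edgeR 4.0.16 (R 4.3.3, quasi-likelihood test), 2-sided, with a term per library, methylation, cell type and sex. In the contrast for a difference between the sexes, the sex term was replaced by 1 that joins female B with male T cells, and female T with male B cells. A common dispersion came from 20000 drawn windows (0.00997), and the prior degrees of freedom were infinite for windows (Inf) and 90.1 for promoters. Benjamini-Hochberg adjustment ran over all 2586849 windows or 28827 promoters, and a call also needed a difference of 20 points. limma 3.58.1 on the log2 ratio of counts with 0.5 added was an alternative. The scripts were tested on simulated data. Shares carry 95% Wilson intervals. With 2 libraries on each side, each from pooled mice, p-values measure only the spread between these libraries.

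The genes, the lists and the tests were chosen with earlier results of these data known. The text names every stretch, the 5 called windows with the largest B minus T difference in each direction, the member and neighbour promoters, and examples of the imprint maintenance promoters; every other window was picked after its values had been seen. Sequences were read from the RefSeq copy of GRCm38 and motifs were searched on both strands.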

Additional observations from a re-analysis of the deposited data

How the results depend on the processing

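The count of intermediate windows in the 5 domains (52) was 83 with bounds of 25 to 75%, 34 with CpGs of at least 10 reads and 57 to 61 with each library left out. The stretches (12) numbered 4 with 1-kb windows, 7 with CpGs of at least 10 reads, 7 when each library used every CpG it listed and 10 to 15 with each library left out. B versus T calls in the domains (18) numbered 7 with 1-kb windows, 39 with no minimum difference and 3 with limma. Over all autosomes (91011, or 3.52% of windows) they numbered 55901 (2.87%), 165469 (6.40%) and 23299 (0.901%) under the same 3 settings. Windows called between female and male cells over all autosomes (19) numbered 66 with no minimum difference, 0 with limma and 12 with CpGs of at least 10 reads. The fits for sex that left out a library held no cell type term, so B versus T differences counted as spread in them. Their common dispersion was 0.0961 to 0.0979, against 0.00997 in the main fit, so their calls cannot be set beside the 19. Those called for a difference between the sexes (5) numbered 3 with 1-kb windows, 40 with no minimum difference, 0 with limma, 2 with CpGs of at least 10 reads and 3 with at least 1 CpG and 1 read. Promoter calls among members and neighbours (1) became 2 and over all genes (581) became 5831 with no minimum difference. The domain difference moved to -2.64 points at H19 and 1.71 at Meg3 over the gene body alone, to 0.435 at Igf2 and 0.826 at Dlk1 as an unweighted mean of CpG levels, and to 1.26 at Dlk1 with CpGs of at least 10 reads. Leaving out a library gave -1.95 to 0.876 points at Igf2 and 0.365 to 1.74 at Meg3. The cause of these moves was not tested, except that a setting with other windows or no minimum tests or passes other numbers by its construction.

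Of 80 alternatives for the 10 named windows 9 fell below the call, 7 of them under limma, and 0 reversed. With no minimum difference a named window could not fall below the call. In that setting, under limma and with at least 1 CpG and 1 read, the B minus T difference was unchanged by construction. It could not reverse there. Of 144 alternatives for the stretch levels 20 moved beyond the Wilson interval, by -22.8 to 20.6 points, in Rasgrf1 stretches 3, 4 and 6, Dlk1 stretch 1 and Meg3 stretch 1. No paired analysis was possible because the replicate numbers in the labels are not shared between groups and each group has 1 library, although the sex term of the fit already set B against T cells within each sex. Depth limits the male B cell library most, with a median of 14 reads per CpG, and levels of windows and stretches with few CpGs rest on the fewest reads.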
